A study of Mus musculus with 53 samples.

Results

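Tumours started by lentiviral vectors that target the tumour suppressor Apc were followed in lungs of 3 mouse genotypes at 15 weeks. They are the tumours listed under the target label APC in mice given the vector pool Lenti-sgTS/Pool, and each was set against the tumours listed under the label Inert in the same mouse. There were 27395 APC tumours among 409584 listed tumours of the series (6.69%) and among 335123 of the 35 pool mice (8.17%). The label APC was paired with the mouse gene Apc. No APC tumour was listed in the 18 mice studied at 9 weeks.

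Each mouse had received virus through the trachea, and the vectors carried Cre recombinase, an sgRNA and a barcode. Barcodes were amplified by PCR from DNA of whole lung and sequenced, with 1 library per mouse, and the deposited table gives the absolute number of cells of each tumour. The genotypes were KTC (n = 10 mice), KPTC (n = 12) and KLTC (n = 13), all after tumour growth of 15 weeks. By the usual naming of these strains, all 3 genotypes share a fluorescent reporter (T) and a Cas9 allele (C), KPTC adds deletion of p53 by Cre, and KLTC adds deletion of Lkb1. The Inert tumours therefore carry the same alleles as the APC tumours of their mouse. The labels describe the tissue as lung epithelium progressing unevenly to adenocarcinoma. The table holds no RNA or protein, so that neither this cell type nor the loss of Apc in any single tumour could be checked. The promoter behind Cre, the sgRNA sequence and the number of sgRNAs behind the label APC were not given in the sources used here.

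Apc is a scaffold of the cytoplasmic complex that marks beta-catenin for degradation. When the complex fails, beta-catenin accumulates and enters the nucleus, where it acts with TCF and LEF factors to turn on targets of the Wnt pathway. Loss of APC is best known as the first step of most colorectal tumours, and Wnt signalling also maintains stem-like epithelial cells of the lung. None of the other 10 targets in the pool is a member of the same complex or pathway by the list used (0 found of CTNNB1, AXIN1, AXIN2, GSK3B, RNF43, ZNRF3, AMER1, TCF7L2 and LEF1).

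APC tumours per mouse numbered 88 to 2079 in KTC (median 1250.5, 12114 in all), 315 to 2475 in KPTC (median 834, 11624 in all) and 30 to 1213 in KLTC (median 222, 3657 in all). Inert tumours numbered 39940, 39164 and 12177 in the same mice. KLTC values thus rest on fewer tumours and vary more between mice. The smallest numbers of APC tumours were in KLTC replicate 1 (30) and KTC replicate 9 (88). Every listed size exceeded 500 cells, and the smallest size listed in a pool mouse ranged up to 982 cells. In KPTC replicate 1 small sizes lay close to steps. Its Inert tumours had a smallest size of 618 cells and 50th, 60th and 70th percentiles of 1252, 1850 and 2461 cells. Where sizes are stepped, APC and Inert percentiles can differ by a whole step or by a small offset within a step. What part such steps play in the results was not tested.

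Barcodes recurred between mice more often for APC than for Inert. Each APC barcode was listed 1.80 times on average over the pool mice, which was the highest of the 12 labels, against 1.41 times for Inert. Such recurrence was not particular to APC: each ATM barcode was listed 1.78 times, and ATM tumours had a higher share with a barcode listed elsewhere than APC tumours in the median KTC (65.0%) and KPTC mouse (67.0%). ATM was named here after its values were seen. Of 15181 distinct APC barcodes, 39.7% were listed in at least 2 pool mice. In the median KTC mouse, 64.0% of APC tumours and 44.9% of Inert tumours had a barcode that was also listed for the same target in another mouse. The same shares were 65.2% and 48.8% in KPTC and 84.6% and 70.3% in KLTC. Matches here and in both barcode filters were sought in all mice of the series, including the 18 mice at 9 weeks. Those mice hold no APC tumour, so that APC could match only in pool mice, while a label listed at 9 weeks could match there too. Tumours with a match at least 10 times larger in another mouse made up 42.4% of APC tumours in the median KLTC mouse and 28.7% of Inert tumours. In KTC they made up 12.2% and 6.30%, and in KPTC 13.9% and 7.65%. Main results are therefore also given for barcodes listed in no other mouse, a check added after the data were seen. Over the 11 targets, tumours per barcode correlated with the mean probability that a tumour exceeds an Inert tumour of its mouse. The r was 0.39 in KTC, 0.53 in KPTC and 0.40 in KLTC. With the mean 60th percentile ratio to Inert it was 0.25, 0.74 and 0.24. These correlations were not tested, and neither was the part that recurring barcodes play in the remaining values.

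**Figure D1:**
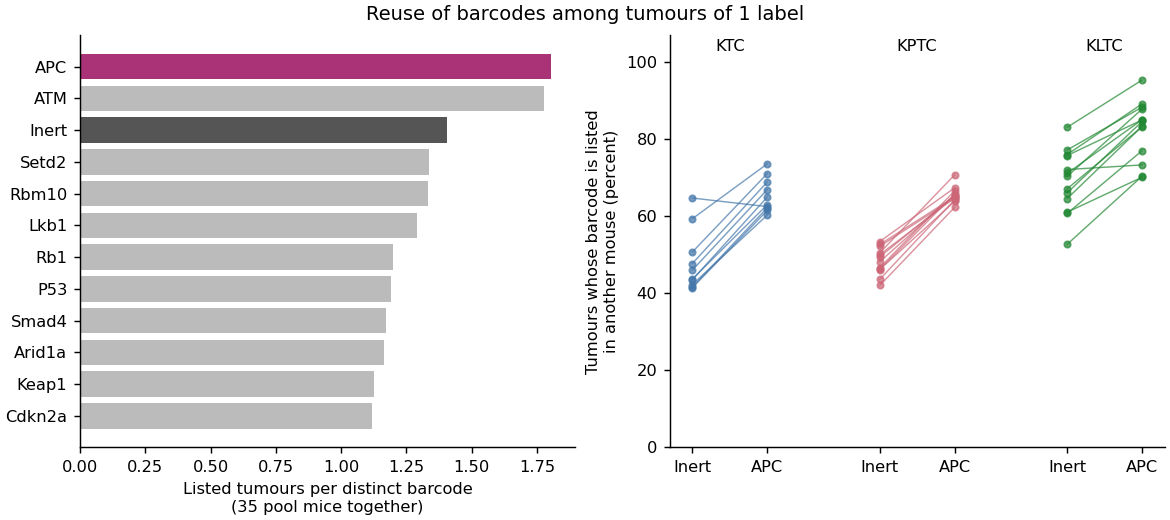
Listed tumours per distinct barcode over the 35 pool mice, with a bar for each of the 12 labels (left), and the percent of tumours whose barcode is listed for the same target in another mouse, with a line joining Inert and APC of 1 mouse (right). APC has the longest bar at 1.80 against 1.41 for Inert, and its medians are 64.0%, 65.2% and 84.6% in KTC, KPTC and KLTC against 44.9%, 48.8% and 70.3%.

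In KTC mice, in which the genotype deletes neither p53 nor Lkb1, APC tumours were slightly larger than Inert tumours from the middle of the size distribution to its 90th percentile. The median APC tumour measured 711 to 1459 cells over the mice (median of mice 1097), against 719 to 1432 cells for Inert (1009). The 2 ranges overlap almost completely, and the difference appears only within mice. The log2 ratio of the medians lay between -0.016 and 0.19 and averaged 0.07 ± 0.06 (SD, n = 10), which is 1.05-fold, and was positive in 9 of 10 mice. The ratio was 0.22 ± 0.08 (1.16-fold) at the 80th percentile, where all 10 mice lay above 0. At the 90th percentile it was 0.27 ± 0.18 (1.20-fold, 9 of 10 mice). Here APC tumours measured 1816 to 11060 cells (median of mice 7573) and Inert tumours 1900 to 8443 cells (5959).

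By two-sided exact sign-flip permutation tests over mice, 5 of the 7 percentiles were called higher for APC in KTC and 0 lower (Benjamini-Hochberg over 77 tests, adjusted p from 0.0107 to 0.145). Over all 11 targets, 29.9% of the percentile tests were called higher. The 95th (0.24 ± 0.32, adjusted p = 0.145, exact) and the 99th percentile (0.37 ± 0.49 in the 9 mice with at least 100 APC tumours, adjusted p = 0.135, exact) missed the threshold. KTC replicate 9 had the lowest 95th percentile ratio (-0.40), with the other mice between -0.05 and 0.61. Only 2 percentiles were called with barcodes listed in no other mouse, and 0 with a minimum size of 1000 cells.

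In KPTC mice, in which p53 is deleted, APC tumours were larger than Inert tumours at all 7 percentiles, and the mean ratio was greatest at the 99th. The median APC tumour measured 811 to 2476 cells (median of mice 1018), and the median Inert tumour 787 to 2447 cells (median of mice 965). Within mice the log2 ratio of these medians lay between 0.005 and 0.57, above 0 in all 12 mice, with a mean of 0.14 ± 0.17 (1.10-fold). KPTC replicate 1 supplied the highest value, from medians of 1858 against 1252 cells, and the next highest was 0.31. In KPTC replicates 3, 6, 10, 11 and 12 the ratio was only 0.005 to 0.017, as for 2476 against 2447 cells in KPTC replicate 12. Such small offsets count as above 0. At the 95th percentile APC tumours measured 4795 to 29179 cells (median of mice 8010) and Inert tumours 4021 to 22861 cells (6886). The ratio there was 0.34 ± 0.25 (1.26-fold), above 0 in 11 of 12 mice, and KPTC replicate 5 was the exception at -0.26. At the 99th percentile it reached 0.59 ± 0.53 (1.50-fold, 9 of 12 mice).

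All 7 percentiles passed the same exact test in KPTC (adjusted p from 0.00179 to 0.0109), where 57.1% of the tests over all targets were called higher. The count stayed at 7 when each mouse was left out in turn. For barcodes listed in no other mouse it was 4, and at a minimum size of 1000 cells it was 3.

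In KLTC mice, in which Lkb1 is deleted, the middle of the APC distribution did not pass the test against Inert, and parts of its upper range did. The median APC tumour measured 828 to 3117 cells (median of mice 1335) against 753 to 2848 cells for Inert (1235). Their log2 ratio was 0.12 ± 0.27 (1.09-fold, positive in 11 of 13 mice) and did not pass (adjusted p = 0.491, exact). At the 90th percentile APC tumours measured 4918 to 272046 cells (median of mice 66311), and Inert tumours 2385 to 277374 cells (median of mice 31142). The ratio was 0.92 ± 0.90 (1.90-fold), above 0 in 11 of 13 mice. It was above 2 in KLTC replicates 1, 2 and 4 and slightly below 0 in KLTC replicates 8 and 12. At the 95th percentile it was 0.74 ± 0.73 (1.66-fold, 11 of 13 mice), with median sizes of 268014 cells for APC and 99086 cells for Inert.

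Of the 7 percentiles in KLTC, 3 were called higher (the 60th, 90th and 95th, adjusted p = 0.0376 for each, exact), and 5 had an unadjusted p under 0.05. Over all targets 3.9% of the percentile tests were called, and these 3 were all of them. The count fell to 1 without KLTC replicate 12 and to 0 without any other single mouse. It was also 0 with barcodes listed in no other mouse, where the 90th percentile ratio was 0.51 in 11 mice. Without tumours matched to one at least 10 times larger in another mouse it was 6, and the median ratio was 0.99. That filter depends on size, since a small tumour has a larger match more easily. It also took a greater share of APC than of Inert tumours (42.4% and 28.7% in the median KLTC mouse). The ratio with it is therefore not a separate test of size. What part the filter plays in the higher ratio was not tested, and the percent called over all targets was not computed with it.

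**Figure D2:**
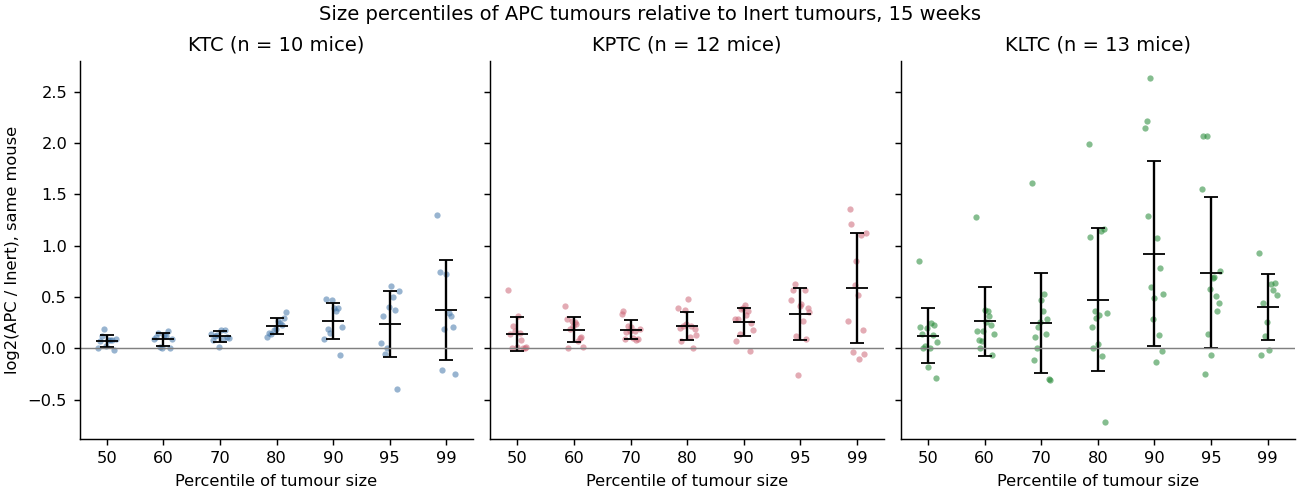
Log2 ratio of APC to Inert tumour size within each mouse (vertical axis) at 7 percentiles of size (horizontal axis), with a panel per genotype, a point per mouse and the mean ± SD in black. The mean rises from 0.07 at the median to 0.27 at the 90th percentile in KTC, from 0.14 to 0.59 at the 99th in KPTC, and from 0.12 to 0.92 at the 90th in KLTC, where the spread between mice is widest.

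The share of tumours above fixed sizes gives the same comparison in absolute terms. In KTC, 30.7% to 70.6% of APC tumours (median 55.1%) had at least 1000 cells, against 25.5% to 66.4% of Inert tumours (51.4%). The difference was 3.78 ± 1.56 percentage points and was positive in all 10 mice (adjusted p = 0.0143, exact sign-flip test, Benjamini-Hochberg over 44 tests). In KPTC it was 4.42 ± 2.87 points, positive in all 12 mice (adjusted p = 0.0043, exact). The smallest listed sizes in KPTC replicate 12 were 990 cells for APC and 982 for Inert. There 98.9% and 95.4% had at least 1000 cells, so that its difference of 3.51 points concerns only tumours just below this limit. In KLTC the difference was 4.61 ± 7.16 points, positive in 10 of 13 mice, and did not pass (adjusted p = 0.0752, exact). KLTC replicate 1 had the largest difference, 26.6 points from 30 APC tumours.

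Larger size limits gave fewer calls. Tumours of at least 10000 cells were more frequent for APC by 1.12 ± 0.94 points in KPTC (adjusted p = 0.0125, exact) and by 1.18 ± 1.60 in KTC (adjusted p = 0.124, exact). In KTC that difference also passed when KTC replicate 9 was left out, which raised the number of shares called from 1 to 2. In KLTC, 0% to 16.2% of APC tumours (median 9.38%) had at least 100000 cells against 0.491% to 14.8% of Inert tumours (4.93%). The difference of 1.88 ± 1.76 points was positive in 12 of 13 mice and missed the threshold (adjusted p = 0.0537, exact). The same difference was 0.21 ± 0.40 points in KTC and 0.18 ± 0.30 in KPTC.

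In all, 1 of the 4 shares was called higher in KTC, 2 in KPTC and 0 in KLTC, beside 22.7%, 29.5% and 0% over all targets. All 4 KLTC shares had an unadjusted p under 0.05, and 4 were called there as log2 odds ratios. The percent called over all targets was not computed for odds ratios. Tumours of at least 1000000 cells were few. They numbered 7 for APC and 12 for Inert in KTC, 9 and 37 in KPTC, and 33 and 51 in KLTC.

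**Figure D3:**
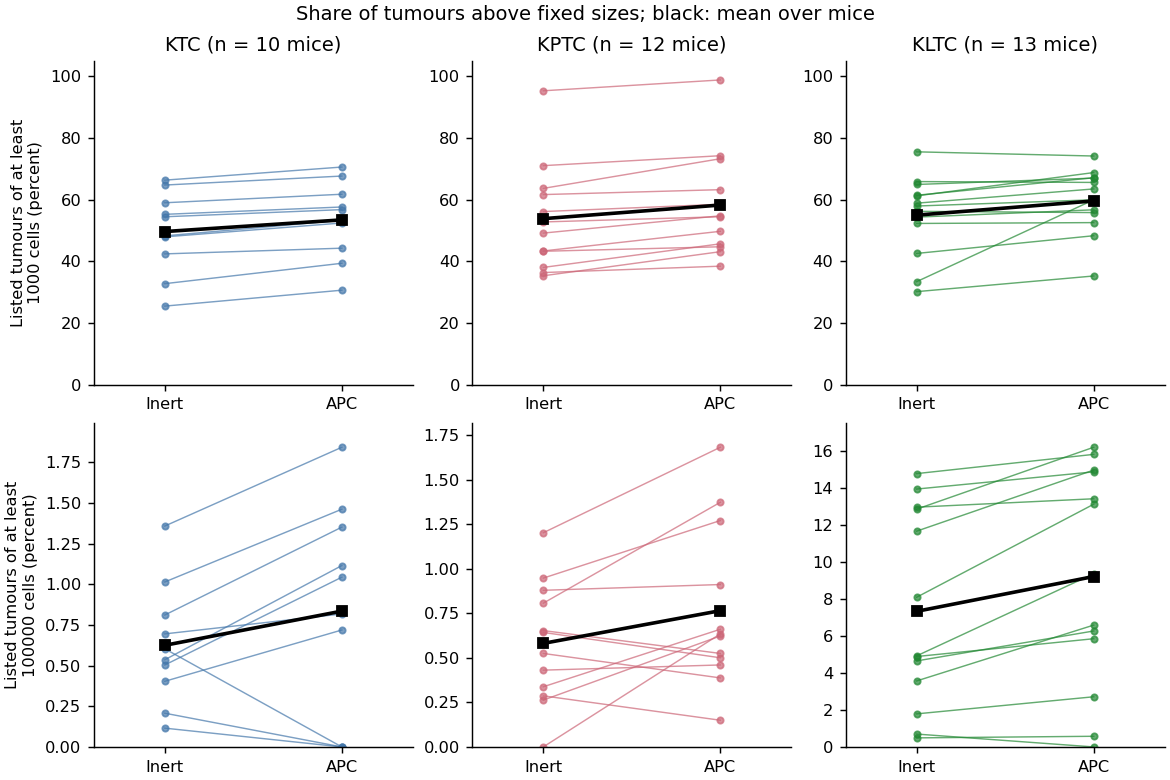
Percent of listed tumours of at least 1000 cells (upper panels) and at least 100000 cells (lower panels, whose vertical scales differ) for Inert and APC in each genotype. A line joins the 2 values of 1 mouse and the black squares are means, which at 1000 cells differ by 3.78 points in KTC, 4.42 in KPTC and 4.61 in KLTC.

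The probability that a random APC tumour exceeds a random Inert tumour of its mouse uses ranks and does not rest on the largest tumours (50% means no difference). Only exactly equal sizes count as ties, so that a small offset between small tumours counts in full. In KPTC replicate 12, with medians of 2476 and 2447 cells for APC and Inert, the probability was 55.1%. What part such offsets play in this measure was not tested. In KTC the probability ranged from 49.8% to 56.8% with a mean of 53.1% ± 1.87 and exceeded 50% in 9 of 10 mice (adjusted p = 0.0215, exact, Benjamini-Hochberg over 11 targets). In KPTC it ranged from 52.3% to 59.0% with a mean of 54.8% ± 1.93, above 50% in all 12 mice (adjusted p = 0.00107, exact). In KLTC it ranged from 49.8% to 67.8%, with a mean of 54.6% ± 4.65, above 50% in 12 of 13 mice (adjusted p = 0.00806, exact). KLTC replicate 1 again lay highest, and the mean excess over 50% without it was 3.45 points (adjusted p = 0.0161, exact). This measure was called higher for 27.3% of targets in KTC, 63.6% in KPTC and 45.5% in KLTC.

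By mean probability APC ranked second of 11 targets in KTC, behind Setd2, and first in KPTC and KLTC. These ranks describe the means and were not tested. In single KPTC mice APC was first in 7 of 12 and among the top 3 in 11 of 12. The excess over 50% with barcodes listed in no other mouse was 2.50 points in KTC (adjusted p = 0.0286, exact) and 5.15 points in KPTC (adjusted p = 0.00179, exact). In KLTC it was 2.72 points in 11 mice and did not pass (adjusted p = 0.261, exact). Mice whose names open with IW gave 53.6% (n = 8) in KTC, 54.0% (n = 7) in KPTC and 56.0% (n = 7) in KLTC. The other mice gave 50.9% (n = 2), 56.0% (n = 5) and 52.9% (n = 6).

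The mean number of cells per tumour, which the few largest tumours dominate, placed APC differently. The log2 ratio of arithmetic means in KPTC lay between -1.30 and 0.74, above 0 in only 4 of 12 mice, with a mean of -0.22 ± 0.63 (adjusted p = 0.533, exact). APC was first of 11 targets by probability in these mice and number 10 by this mean. In KTC the ratio was 0.22 ± 0.57 (7 of 10 mice, adjusted p = 0.378, exact). In KLTC it was 0.40 ± 0.38, positive in 10 of 13 mice (1.32-fold, adjusted p = 0.0215, exact). The ratio was called higher for 18.2%, 0% and 9.09% of targets in KTC, KPTC and KLTC. The KPTC value, with barcodes listed in no other mouse, turned to 0.30 and passed (adjusted p = 0.0443, exact). The KLTC value was then 0.29 without KLTC replicates 1 and 7, which had too few such tumours, and did not pass (adjusted p = 0.161, exact).

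A log-normal mean, computed from the mean and variance of log size, gives less weight to single tumours. Its log2 ratio was 0.19 ± 0.14 in KTC, 0.22 ± 0.11 in KPTC and 0.67 ± 0.46 in KLTC (1.59-fold), above 0 in 9 of 10, 12 of 12 and 13 of 13 mice. The adjusted p values were 0.0161, 0.00134 and 0.00269 (exact), beside 45.5%, 72.7% and 9.09% of targets called higher. In KLTC the ratio lay between 0.28 and 1.66 with a median of 0.43. KLTC replicates 1, 2 and 4 were the highest, above 1. Among barcodes listed in no other mouse the ratio was 0.16 in KTC and 0.20 in KPTC, which passed (adjusted p = 0.0322 and 0.00403, exact), and 0.36 in 11 KLTC mice, which did not (adjusted p = 0.0645, exact). At a minimum size of 1000 cells the KTC ratio was 0.092 (adjusted p = 0.614, exact), and at 5000 cells the KPTC ratio was -0.045 (adjusted p = 0.834, exact).

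**Figure D4:**
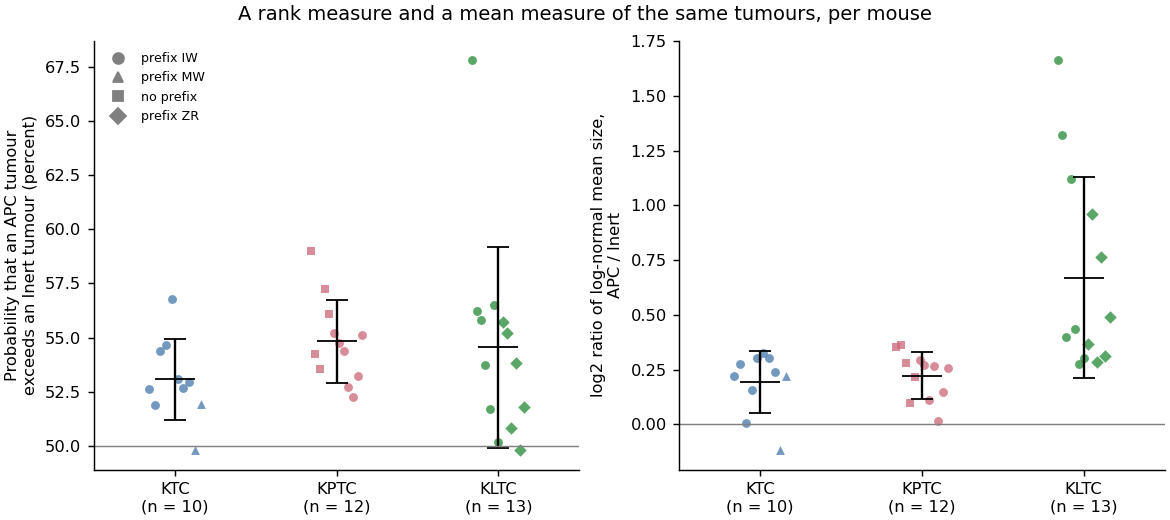
Probability in percent that an APC tumour exceeds an Inert tumour (left, with a line at 50%) and log2 ratio of log-normal mean size of APC to Inert (right, with a line at 0), with a point per mouse shaped by the letters that open its name and the mean ± SD in black. The genotypes overlap on the left, at means of 53.1%, 54.8% and 54.6%, and on the right the KLTC mean of 0.67 lies above 0.19 in KTC and 0.22 in KPTC.

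Mouse labels were permuted to test the difference of the APC effect between genotypes. By log-normal mean, the APC effect was larger in KLTC than in KTC by 0.48 ± 0.13 (SE, adjusted p = 0.00887, permutation test) and larger than in KPTC by 0.45 ± 0.13 (adjusted p = 0.00473). Both comparisons share the KLTC mice. The log-normal mean includes the variance of log size, and Inert sizes spread more widely in KLTC. Their 50th and 90th percentiles (median of mice) were 1235 and 31142 cells in KLTC, 1009 and 5959 in KTC, and 965 and 3337 in KPTC. What part this spread plays in the 2 differences was not tested. In each comparison 9.09% of targets differed upward by this measure, and APC was the 1 target in question. KPTC and KTC differed by 0.03 ± 0.06 (adjusted p = 0.655). For barcodes listed in no other mouse, the differences of KLTC from KTC and KPTC were smaller, at 0.19 and 0.15, and missed the threshold (adjusted p = 0.377 and 0.484, permutation tests). Here 73.3% of 30 APC tumours in KLTC replicate 1 and 89.2% of 74 in KLTC replicate 7 had a barcode listed elsewhere. With fewer than 10 left, both mice dropped out, and KLTC replicate 1 had the highest ratio before the filter (1.66). Among mice with the IW prefix alone the 2 differences were 0.56 and 0.59 and passed (adjusted p = 0.00556 and 0.0128, permutation tests).

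By arithmetic mean, KLTC exceeded KPTC by 0.63 ± 0.21 (adjusted p = 0.0329, permutation test), where 9.09% of targets were called upward. This call was lost in 6 of 25 cases in which 1 mouse was left out, namely KPTC replicates 4 and 8 and KLTC replicates 1, 4, 7 and 11 (0.56 to 0.66, adjusted p from 0.0519 to 0.0644). The difference was -0.01 with barcodes listed in no other mouse, where KLTC replicates 1 and 7 again dropped out. The probability measure differed by 1.75 ± 0.81 points between KPTC and KTC (adjusted p = 0.119), by 1.49 ± 1.42 between KLTC and KTC and by -0.26 ± 1.40 between KLTC and KPTC, and none of these passed. No APC percentile differed between any 2 genotypes after adjustment in the permutation tests (0 of 7 in each comparison, 1 of 7 with an unadjusted p under 0.05 in each). Over all targets, 2.6% of these tests were called higher and 3.9% lower in KPTC than in KTC, while KLTC had 0% higher and 7.79% lower than KTC and 0% higher and 6.49% lower than KPTC. For APC the largest of these differences was at the 90th percentile, 0.67 ± 0.25 between KLTC and KPTC (adjusted p = 0.186).

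The number of APC tumours relative to Inert did not differ detectably between genotypes. There were 0.183 to 0.321 APC tumours per Inert tumour in KTC (median 0.309), 0.226 to 0.338 in KPTC (0.307) and 0.105 to 0.433 in KLTC (0.333). How much of the pool was APC vector was not stated in the sources used, so these ratios can be compared only between genotypes. The log2 ratio averaged -1.79 ± 0.24 in KTC, -1.77 ± 0.16 in KPTC and -1.79 ± 0.51 in KLTC, and the largest difference was 0.02 ± 0.15 (adjusted p = 0.964, permutation test). The lowest values were KLTC replicate 1 (-3.26) and KTC replicate 9 (-2.45), the mice with the fewest APC tumours in their genotypes. In KLTC the ratio averaged -2.02 in IW mice and -1.53 in ZR mice. With barcodes listed in no other mouse it was lower in KLTC than in KPTC by 0.36 ± 0.12 on the log2 scale, a difference that passed (adjusted p = 0.0214, permutation test). That filter took 84.6% of APC and 70.3% of Inert tumours in the median KLTC mouse, against 65.2% and 48.8% in KPTC. The filtered ratio depends on these shares and is not a measure of tumour number alone.

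APC tumours made up 7.97% of listed tumours and 6.50% of listed cells in the mean KTC mouse, 8.32% and 5.71% in KPTC, and 8.04% and 9.29% in KLTC. The share of cells ranged from 3.31% to 9.65% in KTC, from 1.48% to 9.04% in KPTC and from 5.46% to 13.5% in KLTC. Summed APC cells relative to summed Inert cells had a median of 0.359 in KTC, 0.246 in KPTC and 0.397 in KLTC. On the log2 scale this ratio was 0.61 ± 0.20 higher in KLTC than in KPTC and missed the threshold (adjusted p = 0.0667, permutation test). It passed when any of KPTC replicates 2, 6 or 12 or KLTC replicates 1, 3 or 5 was left out.

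**Figure D5:**
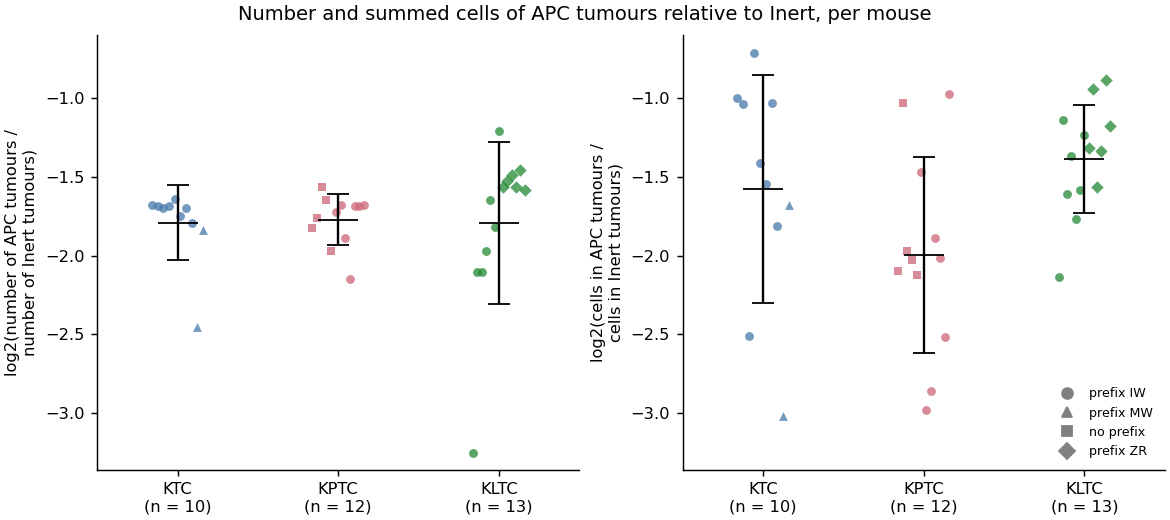
Log2 ratio of the number of APC to Inert tumours (left) and of their summed cells (right) in each mouse, with a point per mouse shaped by the letters that open its name and the mean ± SD in black. The means for number lie together at -1.79, -1.77 and -1.79 in KTC, KPTC and KLTC, and KLTC replicate 1 is the lowest point at -3.26.

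Among the largest 1% of tumours of each mouse, APC made up a mean of 5.07% ± 3.76 in KTC against 7.97% of all tumours there, and its share of the top was the higher one in 2 of 10 mice. In KPTC it made up 7.62% ± 2.60 against 8.32% (higher in 4 of 12 mice). In KLTC it made up 11.6% ± 3.82 against 8.04% (higher in 11 of 13). Inert tumours were 27.7% of all and 16.5% of the top in KTC, 28.4% and 19.8% in KPTC, and 27.4% and 27.6% in KLTC. These shares are parts of a whole that includes the other 10 targets, and they were not tested. APC tumours held 5 of the 100 places among the 10 largest of each KTC mouse, 8 of 120 in KPTC and 11 of 130 in KLTC. The single largest tumour carried APC in 1 KTC mouse and in 0 KPTC or KLTC mice.

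APC was also set against each of the other 10 targets within the same mice, without use of the Inert tumours. By log-normal mean APC exceeded 4 targets and fell below 2 in KTC, exceeded 2 and fell below 2 in KPTC, and exceeded 7 and fell below 0 in KLTC (exact sign-flip tests, Benjamini-Hochberg over 10). As percentages these are 40% and 20%, 20% and 20%, and 70% and 0% of the other targets. The targets above APC were Setd2, a histone methyltransferase of transcribed genes, with Lkb1 in KTC and with Rb1 in KPTC. Those that APC did not exceed in KLTC were Arid1a, Cdkn2a and Rb1, each with adjusted p = 0.0938 (exact); these 5 were named after their values were seen. In KTC the count of 4 was 1 or 2 in 8 of the 10 cases in which 1 mouse was left out. In KPTC it was 4 without KPTC replicate 10. Counting barcodes listed in no other mouse, APC exceeded 5, 1 and 2 targets in KTC, KPTC and KLTC.

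The targets whose values lay nearest to those of APC over the 3 genotypes were Smad4, the common mediator of TGF-beta signalling, and Keap1, the adaptor that directs the antioxidant factor Nrf2 to degradation. Their per-mouse log-normal ratios differed from those of APC by a mean of 0.26 and 0.30 on the log2 scale over 35 mice, and both were also the nearest within KLTC alone (0.44 and 0.51), where the distances were the widest. Within KTC (0.21 and 0.20) and within KPTC (0.14 and 0.20) other targets lay nearer to APC than either. All these ratios share the Inert tumours of a mouse. APC exceeded Smad4 by 0.21 ± 0.11 in KTC (adjusted p = 0.00651, exact) and by 0.38 ± 0.49 in KLTC (adjusted p = 0.0191, exact), with 0.09 ± 0.14 in KPTC (adjusted p = 0.097, exact). It exceeded Keap1 by 0.17 ± 0.17 in KPTC (adjusted p = 0.0195, exact) and by 0.42 ± 0.54 in KLTC (adjusted p = 0.0276, exact), with 0.13 ± 0.21 in KTC (adjusted p = 0.137, exact).

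Targets whose gene the genotype already deletes serve as further controls. In KPTC the P53 vector, against the transcription factor induced by DNA damage, gave a log2 ratio of -0.03 ± 0.08 to Inert, and APC exceeded it by 0.25 ± 0.10 in 12 of 12 mice (adjusted p = 0.00163, exact). In KLTC the Lkb1 vector, against the kinase that activates the AMPK family, gave -0.27 ± 0.65, and APC exceeded it by 0.94 ± 0.82 in 11 of 13 mice (adjusted p = 0.0122, exact). With these controls in place of Inert, 7 percentiles and 3 shares were called in KPTC, and 0 and 0 in KLTC. The percent called over all targets was not computed for these controls. With Inert as reference it was 57.1% of percentile tests and 29.5% of share tests in KPTC, and 3.9% and 0% in KLTC. The KLTC probability (5.97 points above 50%, adjusted p = 0.00326, exact) and arithmetic mean ratio (0.79, adjusted p = 0.0256, exact) also passed against the Lkb1 control.

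By Pearson r, the APC effect on the log-normal mean varied with the number of listed APC tumours in opposite directions in KTC and KLTC. No rank correlation (rho) passed after adjustment over the 3 genotypes (adjusted p = 0.121 in KTC and KLTC and 0.975 in KPTC, permutation tests). In KTC the correlation was positive over 10 mice (r = 0.83, p = 0.00692; rho = 0.64, p = 0.0543; permutation tests, adjusted p of r over 3 genotypes 0.0208). Without the 2 mice farthest from the median number, which are the MW mice, r was 0.85. Within the 8 IW mice it was likewise 0.85 and fell to 0.18 without the next 2, so that it rests on few mice. In KLTC the correlation was negative over 13 mice (r = -0.62, p = 0.0259; rho = -0.51, p = 0.0805; permutation tests, adjusted p of r 0.0389) and was -0.20 without the 2 farthest mice. It was -0.66 in 7 IW mice and 0.53 in 6 ZR mice. In KPTC r was -0.11 and rho -0.01 over 12 mice (p = 0.722 and 0.975, permutation tests).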

How the data were processed

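Sizes of barcoded tumours were taken from the deposited table, which lists the absolute number of cells per tumour by genotype, weeks, mouse, target and barcode, in a unit named by the authors. How reads were processed and scaled to cells was not given in the sources used here. Depth in reads is unknown, so errors are spreads between mice and no counting interval is given. An allele common to all groups is not reported here. Mice were grouped by the labels' genotype, treatment and weeks, and 0 columns of samples were left unmapped. The members, lists and tests were chosen with earlier results of these data known.

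For each mouse with at least 10 APC and 10 Inert tumours (20 for the 95th and 100 for the 99th percentile), APC was compared with Inert by 7 size percentiles, shares above 4 fixed sizes, the Mann-Whitney probability, and arithmetic and log-normal means (the latter from the mean log size plus 0.5 times its variance). Means over mice were tested with two-sided exact sign-flip permutation tests, and genotypes with two-sided permutation tests of mouse labels (100000 resamples, exact where smaller). All 11 targets were fitted. Benjamini-Hochberg adjustment ran over all targets of each genotype or comparison, with a threshold of 0.05. Percent called is the share of these tests past the threshold. It was computed for the main settings and not for the alternatives. Inert tumours of a mouse are common to all its targets.

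APC is named throughout. Other targets have values only if nearest to APC by per-mouse log-normal ratio (2 over the genotypes and 2 within KLTC) or if the genotype deletes their gene, apart from those said to be named after their values were seen. The alternatives were other minimum sizes, barcode filters, leaving out the largest tumours or each mouse, 1 ID prefix, other references and other adjustments. The letters that open mouse names are prefixes of meaning not given in the sources used here. The procedure was also run on simulated targets, drawn from the Inert tumours of each mouse with known size factors. Unlike the data, these had no lower size limit reapplied and no recurring barcodes, and no result here rests on them. Python 3.11.15, NumPy 2.4.6, pandas 2.3.3 and SciPy 1.17.1 were used.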

Additional observations from a re-analysis of the deposited data

Results flagged for a closer look

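In KTC replicate 9 the log2 ratio of the number of APC to Inert tumours was -2.45, and the nearest of the other KTC mice had -1.84. The gap is 0.754 of the range over the 10 mice. The mouse had 88 listed APC tumours, the fewest in KTC. Chance marks about 1 in 20 groups in this way, and several measures were screened. The rule was applied only to groups of at most 10 mice, so KPTC and most KLTC measures were not screened. The number ratio of KLTC replicate 1 (-3.26) was among those not screened.

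The APC effect on the log-normal mean differed between genotypes by a permutation test of mouse labels. It was 0.476 higher in KLTC than in KTC and 0.447 higher in KLTC than in KPTC, on the log2 scale. The difference of the arithmetic mean between KLTC and KPTC was 0.628. With barcodes listed in no other mouse these 3 differences were 0.19, 0.15 and -0.01 and none passed. KLTC replicates 1 and 7 dropped out there, with fewer than 10 APC tumours left. What part the recurring barcodes, or the wider spread of sizes in KLTC, play in the differences was not tested.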

How the results depend on the processing

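Small differences in KLTC, with few tumours per mouse, and any below 500 cells were not detectable. The cause of each change was not tested. Mean ratios and their differences are on the log2 scale, and probabilities are points above 50%. Mice could not be paired between genotypes, because replicate numbers were given in accession order. APC and Inert were paired within each mouse throughout.

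Minimum sizes of 1000, 1500 and 5000 cells left 0, 0 and 1 percentiles called in KTC, 3, 1 and 0 in KPTC and 1, 1 and 1 in KLTC, with 0 shares called in KTC and KPTC at each, where the share of at least 1000 cells drops out by construction. The log-normal ratio missed the threshold in KTC (0.092, 0.072 and 0.22), at 1500 cells in KPTC (0.11) and at 5000 cells in KLTC (0.46), and turned to -0.045 in KPTC at 5000. The arithmetic ratio in KLTC was 0.29, 0.30 and 0.20 and did not pass. The probability did not pass in KTC at 1500 cells (0.929) or in KPTC (1.23) and KLTC (4.04) at 5000, while its KPTC minus KTC difference passed at 1000 (2.07). The 99th percentile in KPTC turned to -0.056, -0.10 and -0.12 and the 95th to -0.22 at 5000 cells. At 5000 cells the difference KLTC minus KTC of log-normal ratios was 0.24 and that of arithmetic ratios KLTC minus KPTC 0.82, and neither passed. By log-normal mean APC exceeded 0, 1 and 1 other targets in KTC and 1, 1 and 0 in KPTC at the 3 sizes, and 1 and 0 in KLTC at 1500 and 5000 cells.

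The filter on tumours matched to one at least 10 times larger in another mouse removes mainly small tumours, and most in KLTC. KLTC ratios with it, and their differences from other genotypes, are therefore not separate tests of size. What part the filter plays in the higher KLTC ratios was not tested. With this filter, 6 percentiles and 3 shares were called in KLTC. There 4 percentiles differed between KLTC and KTC and 5 between KLTC and KPTC, the median difference of the latter turned from -0.02 to 0.80, the probability difference KLTC minus KTC was 5.25 and passed, and APC exceeded 7 targets in KPTC. Without the largest tumours 0 percentiles were called in KLTC and APC exceeded 5 targets in KPTC. In IW mice alone 0 percentiles were called in KPTC and KLTC and 0 shares in KPTC. Both genotypes had 7 such mice, for which no exact p before adjustment can be below 0.0156. The lack of calls there cannot show that the ratios are absent. In KPTC the ratios at the 50th to 80th and the 95th percentile were above 0 in 7 of 7 IW mice, at the 90th in 6 and at the 99th in 5. The KLTC probability (6.0), arithmetic (0.47) and log-normal ratio (0.79) did not pass in the 7 KLTC mice under the same limit. Nor did the arithmetic difference KLTC minus KPTC (0.79). APC exceeded 0 targets in KLTC, and 1 percentile differed between KLTC and KTC. The control target as reference, or at least 100 tumours for every percentile, left 0 percentiles called in KLTC. Adjustment over all genotypes called 3 KLTC shares, log2 odds ratios called 4, and adjustment over all comparisons called the summed cell difference KLTC minus KPTC (0.61).

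With barcodes listed in no other mouse, an alternative chosen after seeing the data, the percentiles called were 2, 4 and 0 and the shares 0, 1 and 0 in KTC, KPTC and KLTC. The arithmetic ratio in KPTC turned to 0.30. In KLTC the probability (2.71), arithmetic (0.29) and log-normal ratio (0.36) did not pass. The log-normal differences of KLTC from KTC (0.19) and KPTC (0.15) did not pass, the arithmetic difference from KPTC was -0.0061, and the number difference from KPTC passed (-0.36). The number ratio with this filter depends on the shares of APC and Inert tumours that it takes, which differ between genotypes. KLTC replicates 1 and 7 kept fewer than 10 APC tumours and dropped out, except from number and summed cells. APC exceeded 2 targets in KLTC and 1 in KPTC, and fell below 0 in KPTC and 1 in KTC.

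Leaving out each mouse gave 0 to 1 percentiles called in KLTC, 0 to 2 shares in KLTC, 1 to 2 shares in KTC and 0 to 1 percentiles that differed between KLTC and KPTC. The targets that APC exceeded by log-normal mean were 1 to 5 in KTC and 2 to 4 in KPTC. The difference KLTC minus KPTC was 0.53 to 0.72 for arithmetic means and 0.52 to 0.70 for summed cells, and the probability difference KPTC minus KTC was 1.37 to 2.17 points.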

Other observations

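Of the APC tumours of 500 to 1000 cells in KLTC, 50.3% had a match at least 10 times larger elsewhere. Among those of 10000 to 100000 cells the share was 6.39%. The same shares were 16.3% and 2.29% in KTC and 17.3% and 1.61% in KPTC. APC tumours of at least 100000 cells, of which KTC had 139, KPTC 108 and KLTC 273, had 0 such matches in each genotype.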
